A study of Mus musculus with 20 samples.

Results

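Hemoglobin and erythroid genes were examined in the heart apex of 20 mice as a measure of how much blood RNA each library held. The group consists of 6 genes, Hba-a1, Hba-a2, Hbb-bs, Hbb-bt, Alas2 and Slc4a1, found by symbol in the deposited table of 25308 genes, and each symbol matched 1 row. All 6 passed the filter on low counts, among 14477 genes that did.

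The series asks what amyloid deposits of a human immunoglobulin light chain (LC) do to the heart. AL mice (n = 9) were λS-DH mice with cardiac amyloid, which carry the human λS LC cDNA, driven by a mouse VH promoter, inserted into the endogenous kappa LC gene of mice with the DH-LMP2A background, and in which deposits were induced by an intravenous injection of fibrillar or soluble recombinant λS variable domain. LS mice (n = 4) had the same genotype, were not induced and had no deposits. Ctrl mice (n = 7) were DH mice, which share the DH-LMP2A background but lack the human LC. The λS insertion was made in 129 embryonic stem cells injected into C57BL/6 blastocysts, and every group lacks normal Ig heavy chains. Both sexes were used. The ages of single mice, and which inducer each AL mouse received, are not given in the labels used here.

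Mature red cells of mammals have no nucleus, but reticulocytes and young red cells still carry RNA, most of it globin mRNA. Adult hemoglobin is a tetramer of alpha chains, encoded by Hba-a1 and Hba-a2, and beta chains, encoded by Hbb-bs and Hbb-bt, each of which binds a haem group. Alas2 makes the first and rate-limiting step of haem synthesis in erythroid cells, and Slc4a1 encodes band 3, the chloride and bicarbonate exchanger that anchors the red cell skeleton to the membrane. Their transcripts in a whole-tissue library are commonly read as a sign of blood left in the sample. Whether the hearts were flushed of blood is not given in the sources used here.

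The alpha genes lie on chromosome 11 of GRCm38, Hba-a1 at 32283511 to 32284465 and Hba-a2 at 32296489 to 32297298, both on the forward strand. The beta genes lie on chromosome 7 on the reverse strand, Hbb-bs at 103826534 to 103828096 and Hbb-bt at 103812524 to 103813996. Alas2 lies on chromosome X at 150547375 to 150570638 and Slc4a1 on chromosome 11 at 102348824 to 102366203. Within each pair of globin genes the coding sequences differ at 1 base, C381T from Hba-a1 to Hba-a2 among 429 bases and C417T from Hbb-bs to Hbb-bt among 444, counted from the A of the start codon. The longest stretch that a pair shares without a difference is 380 coding bases for the alpha and 416 for the beta genes. The 41 coding bases around each difference, read from the GENCODE M21 transcripts with the differing base in capitals, show how little sequence separates the copies, and beyond it reads can be assigned to 1 copy only through untranslated parts.
Hba-a1, coding bases 361 to 401: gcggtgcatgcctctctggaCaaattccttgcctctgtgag
Hba-a2, coding bases 361 to 401: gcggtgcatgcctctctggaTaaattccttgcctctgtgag
Hbb-bs, coding bases 397 to 437: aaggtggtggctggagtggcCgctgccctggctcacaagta
Hbb-bt, coding bases 397 to 437: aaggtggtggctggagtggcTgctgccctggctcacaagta

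The 150 bases before the RefSeq starts (GRCm38.p6) are printed for 4 of the members, with matches on either strand in capitals. Whether these sequences bear on the levels described below was not tested. The letters searched were those of the CCAAT box, of the CACCC box that Krüppel-like factors bind, of the TATAA box found near many starts, and GATAA as well as the form GATAG, cores of sites for GATA factors. The CACCC and CCAAT matches of Hbb-bt that touch or repeat are printed as 1 run. Hba-a1 is left out because its window, shifted by 3 bases, is identical to that of Hba-a2 over 297 compared bases, and no RefSeq window was matched to Slc4a1. Some GENCODE models of these genes start upstream of the RefSeq start.
Hba-a2, chr11:32296342-32296491, forward strand: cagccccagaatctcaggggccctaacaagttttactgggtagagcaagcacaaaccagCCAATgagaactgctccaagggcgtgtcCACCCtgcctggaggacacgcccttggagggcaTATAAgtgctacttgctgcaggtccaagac
Hbb-bs, chr7:103827929-103828078, reverse strand: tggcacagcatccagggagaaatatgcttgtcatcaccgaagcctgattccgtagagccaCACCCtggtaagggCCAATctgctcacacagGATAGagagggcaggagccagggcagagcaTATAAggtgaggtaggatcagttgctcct
Hbb-bt, chr7:103813924-103814073, reverse strand: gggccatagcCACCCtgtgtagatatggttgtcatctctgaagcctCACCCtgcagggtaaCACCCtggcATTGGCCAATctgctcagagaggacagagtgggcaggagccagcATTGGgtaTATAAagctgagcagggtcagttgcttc
Alas2, chrX:150547267-150547416, forward strand: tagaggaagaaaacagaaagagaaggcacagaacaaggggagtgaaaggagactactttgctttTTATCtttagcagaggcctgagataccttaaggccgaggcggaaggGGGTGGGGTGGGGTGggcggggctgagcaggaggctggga

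The 3 globin windows each hold a TATAA match, 28 to 30 bases before the start, and at least 1 CCAAT and 1 CACCC match. The Alas2 window holds neither TATAA nor CCAAT, but 3 CACCC matches on the reverse strand and 1 GATAA match 86 bases before the start. Hbb-bs alone of the 4 holds GATAG, 59 bases before the start. Among 32851 RefSeq promoters of the same length, CACCC occurs in 37.4%, CCAAT in 24.5%, TATAA in 14.2%, GATAA in 13.3% and GATAG in 12.3%, and a match of this kind is a description of letters, not a bound site.

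The deposited values are counts per gene that the authors estimated with Salmon, without normalization. Totals lay between 43993268 and 62668157 counts in the 15 mice of the first sequencing run and between 7867636 and 11794617 in the 5 mice of the second, AL8, AL9, Ctrl5, Ctrl6 and Ctrl7. The second run held no LS mouse. A floor of 3 counts corresponds to 0.0474 to 0.356 CPM (counts per 1e6, scaled by TMM), and covers counting error only. Xist, the RNA that silences 1 X chromosome in females, lay between 184.7 and 399.6 CPM in 8 mice of the first run (the AL mice 2 to 4, the LS mice 2 and 3 and the Ctrl mice 1 to 3) and at or under 6.35 CPM in the other 12 mice, which are called male-type here. All 5 mice of the second run were male-type. The apex was heart muscle by its markers, with a summed level of 10 cardiomyocyte genes of 48886 to 70084 CPM in the first run and 70293 to 83343 CPM in the second, so that the runs did not overlap. Myh6, the largest part of this sum, stood at 13748 to 29462.5 CPM in the first run and at 34358 to 42744 CPM in the second.

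The 4 globin genes together took 0.0932% of the counts in AL3 (95% Wilson interval 0.0924 to 0.094) and 2.00% in Ctrl2 (1.999 to 2.006), the lowest and the highest of the 20 mice. The median share was 0.492% in AL, 0.331% in LS and 0.377% in Ctrl mice. The 3 ranges overlapped, from 0.0932 to 1.22% in AL, from 0.255 to 0.630% in LS and from 0.142 to 2.00% in Ctrl mice. In bulk tissue, fewer red cells and less RNA per red cell cannot be told apart.

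Per kilobase of transcript, the level of Hbb-bs had a median of 3429 CPM over the 20 mice, followed by Hba-a2 with 1493, Hba-a1 with 945.8, Hbb-bt with 504.3, Alas2 with 33.2 and Slc4a1 with 0.422 CPM. Each gene lay above the next in 20 of 20 mice on this per-length scale, so the order was the same throughout, although the levels themselves spread widely. The order of copies within each globin pair rests on how the quantification split their shared sequence.

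**Figure D1:**
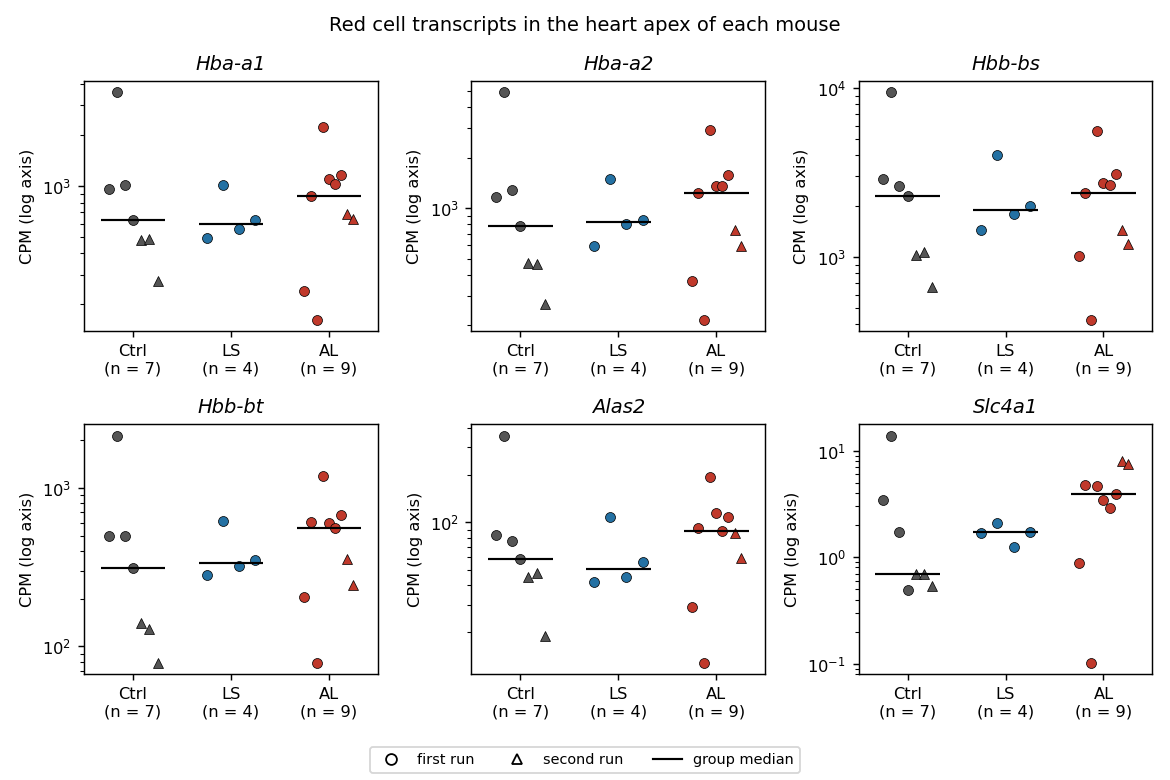
Level of each of the 6 genes in every mouse (CPM, TMM-scaled, log axis), with circles for the first run, triangles for the second and a bar at the group median. Ctrl2 is the highest mouse and AL3 the lowest in each panel, and the 3 groups overlap.

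Hbb-bs, the more abundant beta-globin, ranged from 425.0 CPM in AL3 through a median of 2380 to 5564 CPM in AL4 among the 9 AL mice. The LS mice had 1449, 3993, 1791 and 2009 CPM. The Ctrl mice ranged from 668.9 CPM in Ctrl7 through a median of 2298 to 9421 CPM in Ctrl2. Between the lowest and highest mouse of the series Hbb-bs differed 22.2-fold, with 1 AL and 1 Ctrl mouse at the ends and the LS mice in the middle.

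The other globins followed. Hbb-bt, with AL, LS and Ctrl medians of 555.8, 335.8 and 312.7 CPM, ranged from 78.5 to 1188 CPM in AL, from 279.9 to 621.1 CPM in LS and from 79.0 to 2134 CPM in Ctrl mice. Hba-a2 had medians of 1237, 827.3 and 787.6 CPM in the same order, within 215.4 to 2912, 591.2 to 1492 and 267.3 to 4912 CPM. Hba-a1 had medians of 876.2, 594.4 and 626.8 CPM, within 162.2 to 2222, 494.6 to 1017 and 274.4 to 3579 CPM. For each of the 3 genes the 4 LS mice lay inside the ranges of both the AL and the Ctrl mice.

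Alas2 had medians of 88.1, 50.6 and 58.0 CPM in AL, LS and Ctrl mice, within 12.7 to 193.7, 41.7 to 107.5 and 19.1 to 356.0 CPM. Slc4a1 was the scarcest member, with 6 counts in AL3 and 729 in Ctrl2. It stood at 0.101 to 8.06 CPM in AL mice (median 3.90) and at 0.488 to 13.9 CPM in Ctrl mice (median 0.697). The LS mice had 1.68, 2.10, 1.24 and 1.73 CPM of Slc4a1. Its range of 137-fold across the series was the widest of the 6 genes, and its lowest mouse was again AL3 and its highest Ctrl2.

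Transcripts that mark nucleated red cell precursors were at or near 0. Of the transcription factors that direct red cell formation, Gata1 had at most 5 counts in a mouse and 0 in 8 mice, Klf1 at most 6 with 0 in 5 mice, and Gfi1b at most 2 with 0 in 14 mice. The erythroblast genes Car1, Rhag, Trim58, Cldn13 and Tspo2 reached at most 5, 5, 5, 3 and 4 counts, and these 5 were chosen after their values were seen. The embryonic globins Hbb-bh1, Hbb-bh2 and Hba-x had 0 counts in all 20 mice, and Hbb-y had 1 count in 1 mouse. The theta-like genes Hbq1a and Hbq1b had at most 21 and 46 counts. Myoglobin (Mb), the oxygen-binding globin of heart muscle, had means of 10820.5, 11080.3 and 9982 CPM in AL, LS and Ctrl mice, whereas neuroglobin (Ngb) had at most 13 counts.

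The members rose and fell together from mouse to mouse. Across the 20 mice the log2 CPM of Hbb-bs correlated with that of Hba-a2 at Pearson r = 0.98 (Spearman rho 0.97), with Hbb-bt at 0.97 (0.95), with Hba-a1 at 0.96 (0.94) and with Alas2 at 0.95 (0.90). Each permutation p was 1e-05, the smallest that 100000 resamples give, and 3e-05 after Benjamini-Hochberg adjustment over 12 relations, for r and rho alike. In the 15 mice of the first run r was 0.98 for each of the 4 genes, and the second run has too few mice for a value. Without AL3 and Ctrl2, the 2 mice farthest from the median of Hbb-bs, they were 0.98, 0.95, 0.92 and 0.90.

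Slc4a1 followed Hbb-bs less closely, with r = 0.71 and rho = 0.63 over the 20 mice (permutation p = 0.00048 and 0.00414, adjusted p = 0.00115 and 0.00994). Within the first run r was 0.87 (adjusted permutation p = 0.00036). Without AL3 and Ctrl2 r was 0.47 (permutation p = 0.0502, adjusted p = 0.0861), so the relation over both runs rests on those mice.

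**Figure D2:**
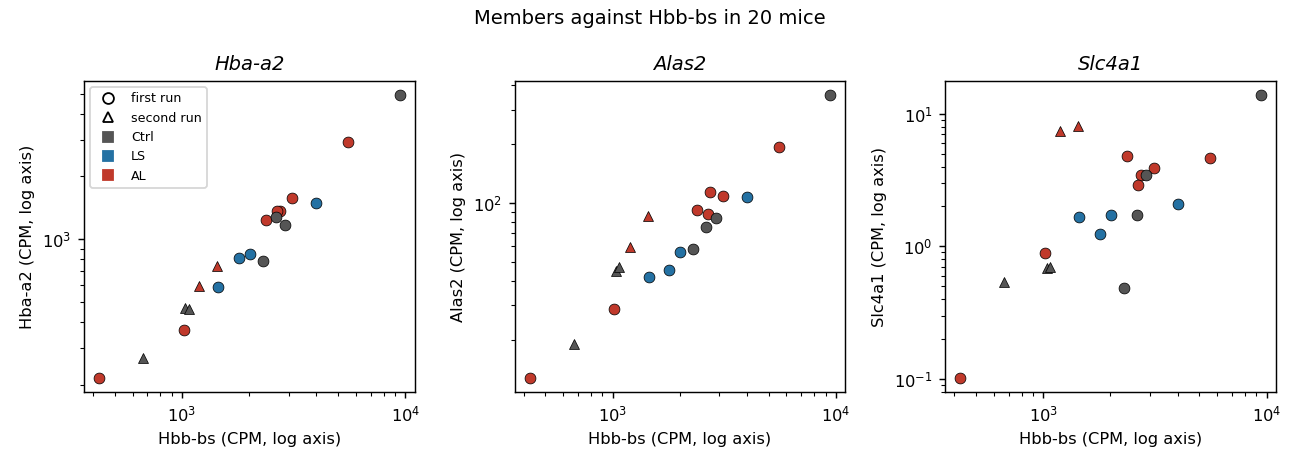
Levels of Hba-a2, Alas2 and Slc4a1 against Hbb-bs in the 20 mice (CPM, log axes), with colour for the group, circles for the first and triangles for the second run. Hba-a2 and Alas2 lie along 1 line, whereas for Slc4a1 AL8 and AL9 (8.06 and 7.49 CPM) lie above the other triangles, and Ctrl2 is the highest mouse at 13.9 CPM.

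Relations of Hbb-bs with markers of other blood and tissue cells were computed from summed levels, and their difference from the members' relations was not tested. The summed level of 13 platelet and megakaryocyte genes had r = 0.21 with Hbb-bs (permutation p = 0.377, adjusted p = 0.411), that of 12 neutrophil genes 0.32 (p = 0.178, adjusted 0.237), that of T cell genes 0.39 (p = 0.0856, adjusted 0.147) and that of B cell genes 0.04 (p = 0.867, adjusted 0.867), by permutation over 20 mice. By rank, neutrophil and T cell genes had rho = 0.55 and 0.52 (adjusted permutation p = 0.0254 and 0.0341). In the first run alone the neutrophil list reached r = 0.66 (adjusted permutation p = 0.0165). For Hbb-bs and the T cell list r was 0.72 without AL3 (adjusted permutation p = 0.0011) and 0.69 without AL3 and Ctrl2 (0.00343). Most of the T cell sum was Cd28, with means of 8.20, 8.19 and 7.45 CPM in AL, LS and Ctrl mice. The other T cell genes had group means of at most 0.599 CPM each, so these relations are mainly with Cd28.
Endothelial genes ran the other way, with r = -0.48 and rho = -0.49 (adjusted permutation p = 0.065 and 0.0447). Cardiomyocyte genes had r = -0.26 over the 20 mice and 0.29 within the first run (adjusted permutation p = 0.332 and 0.43), and liver genes 0.38 (0.147).

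Likeness to Hbb-bs was computed over 12220 tested genes whose mean level reached 1 CPM, with the difference between runs removed, and the 4 genes most like Hbb-bs across the 20 mice were the members Hba-a2, Hba-a1, Alas2 and Hbb-bt (r = 0.98, 0.98, 0.97 and 0.96), and Slc4a1 ranked 12 (r = 0.79). Among the 10 most like Hbb-bs that are not members were Bpgm (0.95), Ube2l6 (0.89), Plin4 (0.86), Car2 (0.80), Isg20 (0.79), Mkrn1 (0.79), Tent5c (0.78) and Ube2o (0.75). These r values are descriptions, since the genes share libraries and scaling. Bpgm makes the 2,3-bisphosphoglycerate that tunes oxygen release from hemoglobin, Car2 encodes a carbonic anhydrase, and Ube2o a ubiquitin ligase. Bpgm shared the extremes of the globins, lowest in AL3 (15.7 CPM) and highest in Ctrl2 (117.3 CPM).

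In AL against Ctrl mice, 0 of 6 members were called with run as a term in the quasi-likelihood test of edgeR (FDR, the Benjamini-Hochberg adjusted p over all tested genes, under 0.05 and absolute log2 fold change (log2FC) of at least 0.58), where the share called among all tested genes was 7.81% (4.1% up and 3.71% down), and 0 of 6 had an unadjusted p under 0.05. The log2FC was -0.35 ± 0.42 (SE) for Hbb-bs, -0.0039 ± 0.49 for Hbb-bt, -0.24 ± 0.45 for Hba-a1, -0.21 ± 0.46 for Hba-a2, -0.16 ± 0.49 for Alas2 and 0.31 ± 0.73 for Slc4a1, with FDR from 0.57 to 0.997. The median over the members was -0.18, against 0.01 over all tested genes. These values depended on Ctrl2, without which the log2FC became 0.17 for Hbb-bs, 0.72 for Hbb-bt, 0.35 for Hba-a1, 0.44 for Hba-a2, 0.55 for Alas2 and 1.499 for Slc4a1, and again 0 members were called. Slc4a1 was called in the second run alone and in male-type mice, as described with the runs. The standard errors of 0.42 to 0.73 leave changes of the size of the threshold undetectable here.

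In AL against LS mice, 0 of 6 members were called, where 8.9% of the tested genes were (5.86% up and 3.03% down). The log2FC was above 0 for 6 of 6 members (51.4% of all genes), from 0.31 ± 0.52 for Hbb-bs to 1.27 ± 0.93 for Slc4a1, with a median of 0.72 (all genes 0.01) and FDR from 0.337 to 0.711. All LS mice were in the first run, and within it the AL and LS means of log2 CPM differed by 0.15 for Hba-a1, 0.14 for Hba-a2, -0.092 for Hbb-bs, 0.19 for Hbb-bt, 0.24 for Alas2 and 0.17 for Slc4a1 (exact permutation p from 0.730 to 0.921). In LS against Ctrl mice, 0 of 6 were called, where 0.0207% of the tested genes were, 1 gene (0.00691%) higher and 2 (0.0138%) lower, and 860 had an unadjusted p under 0.05. The log2FC lay between -0.96 ± 0.90 for Slc4a1 and -0.66 ± 0.55 for Hbb-bs, with FDR from 0.875 to 0.927. AL against Ctrl and AL against LS share the AL mice, and LS against Ctrl shares its groups with both. Against LS and Ctrl merged into 1 group, 0 of 6 members were called (absolute log2FC of at least 1), where 4.88% of the tested genes were (2.74% up and 2.15% down).

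**Figure D3:**
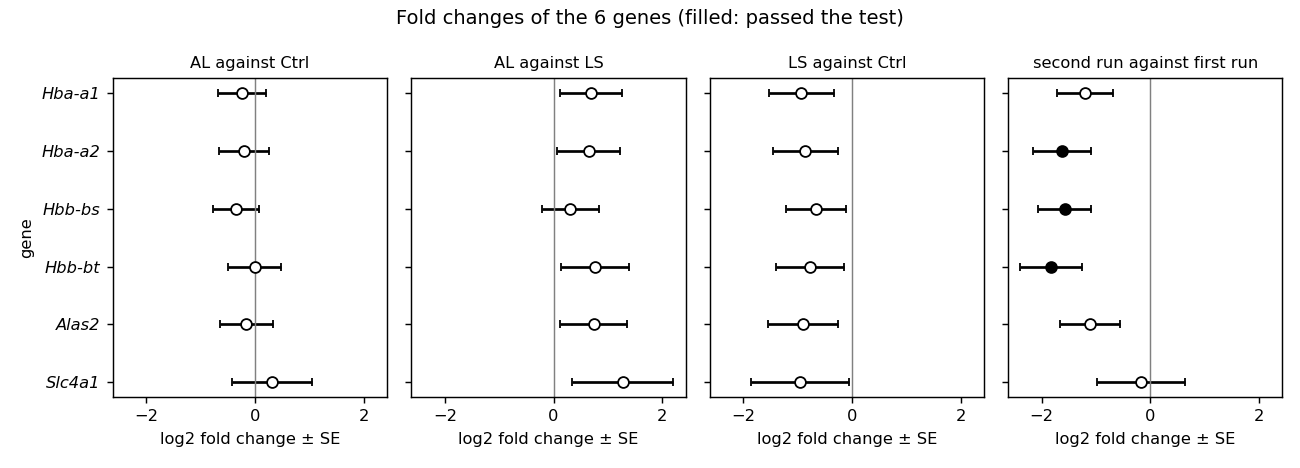
Log2 fold change of each member in 4 comparisons (points, with bars of 1 SE, edgeR's quasi-likelihood fit, filled where called). No member is called between groups, and Hba-a2, Hbb-bs and Hbb-bt are called lower in the second run.

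Between sequencing runs, with the group in the model, 3 of 6 members were lower in the second run, where 10.3% of all tested genes were called lower, 9.12% were higher and 19.4% passed in either direction. The log2FC was -1.57 ± 0.49 for Hbb-bs (FDR 0.0132), -1.82 ± 0.57 for Hbb-bt (FDR 0.0144) and -1.62 ± 0.53 for Hba-a2 (FDR 0.0192) by edgeR's quasi-likelihood test. Hba-a1 (-1.21 ± 0.51, FDR 0.0637), Alas2 (-1.11 ± 0.55, FDR 0.114) and Slc4a1 (-0.17 ± 0.81, FDR 0.883) did not pass. Hbb-bs stood at 1437 and 1190.2 CPM in AL8 and AL9 and at 1034, 1073 and 668.9 CPM in the mice Ctrl5 to Ctrl7, whereas the first run spanned 425.0 to 9421 CPM around a median of 2627. AL1 (1015 CPM) and AL3 of the first run lay within or under the range of the second, so the runs overlapped.

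Sex moved with the run. With Xist as a covariate 0 members were called between runs, with log2FC of -0.90 for Hbb-bs (FDR 0.264), -0.94 for Hbb-bt (FDR 0.311) and -0.79 for Hba-a2 (FDR 0.373). Among the 12 male-type mice alone, a comparison added after the data were seen, Hbb-bs and Hbb-bt were called lower in the second run (log2FC -1.02 and -1.01, FDR 0.0207 and 0.0315), Slc4a1 higher (1.16, FDR 0.0384), and Hba-a2 did not pass (-0.86, FDR 0.0849), where 2603 of 14804 tested genes were called. Without the group in the model, Slc4a1 in these mice differed by 0.994-fold between runs (exact permutation p = 0.99). In the fit of all mice with the group, the number of members called was 5 without AL3 and 2 without Ctrl7, where 2821 of 14446 and 2747 of 14430 tested genes were called. Of 10 cardiomyocyte genes tested, Tnnt2, Myh6 and Myh7 were called higher in the second run (log2FC 0.70, 0.79 and 1.19) and 0 lower, where 9.12% of all tested genes were higher. The list did not move as a whole, with a log2FC above 0 for 7 genes and a median of 0.23. Myl2 lay at 5703 to 7661 CPM in Ctrl5 to Ctrl7, under 7790 to 9218 CPM in Ctrl1 to Ctrl4. The parts of sex, depth and muscle content in the difference between runs were not tested beyond these fits.

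Slc4a1 parted from the globins in the second run by the size of its difference between AL and Ctrl mice. AL8 and AL9 had 8.06 and 7.49 CPM, against 0.689, 0.697 and 0.538 CPM in Ctrl5 to Ctrl7, on 68 and 87 counts against 7 counts in each. In the first run AL mice spanned 0.101 to 4.79 CPM and Ctrl mice 0.488 to 13.9 CPM. The 2 groups thus did not overlap in the second run and overlapped in the first. By means of log2 CPM, the other members were also higher in AL than in Ctrl mice of the second run, from 1.44-fold for Hbb-bs to 2.61-fold for Hbb-bt. For Slc4a1 the fold was 12.2. How many of all tested genes were apart in this way in 2 against 3 mice was not counted. The exact permutation p was 0.1 or 0.2 for each member, where 0.1 is the smallest that 2 against 3 mice allow. Because the members moved together, they are no separate observations here. In a fit of the second run alone Slc4a1 was called higher in AL (log2FC 3.64 ± 0.34, FDR 0.0202, 2 against 3 mice), where 16 of 12496 tested genes were called, and in the first run alone its log2FC was -0.73. The difference between runs in AL against Ctrl was 4.33 ± 1.52 on the log2 scale (unadjusted p = 0.0119, FDR 0.183 by edgeR's quasi-likelihood test), so 0 of 6 members passed that test, where 0.701% of the tested genes did.

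Sex moved with this difference among Ctrl mice, since Ctrl1, Ctrl2 and Ctrl3, the Ctrl mice highest in Slc4a1, were the female-type ones. The other groups did not show this order. The female-type AL2, AL3 and AL4 had 4.79, 0.101 and 4.67 CPM, against 0.885 to 8.06 CPM in male-type AL mice. The female-type LS2 and LS3 had 2.10 and 1.24 CPM, on either side of the male-type LS1 and LS4 (1.68 and 1.73 CPM). In the 12 male-type mice, again added after the data were seen, Slc4a1 was higher in AL than in Ctrl mice by a log2FC of 3.1199 ± 0.44 (FDR 0.00676, edgeR's quasi-likelihood test, 684 of 14804 tested genes called), with 0.885 to 8.06 CPM in 6 AL mice above 0.488 to 0.697 CPM in 4 Ctrl mice, without overlap. An exact permutation test on log2 CPM of these 10 mice without the run gave 5.995-fold and p = 0.0143 (two-sided). Of these 4 Ctrl mice, 3 were in the second run and 1 in the first. The globins and Alas2 lay higher in the same 6 AL mice by less, from 1.61-fold for Hba-a1 and Hbb-bs to 2.73-fold for Hbb-bt (exact permutation p = 0.186, 0.171 and 0.0238, unadjusted), and their groups overlapped.

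Per 1000 globin counts, AL8 and AL9 had 2.503 and 2.80 counts of Slc4a1, whereas the other 18 mice had 0.115 to 0.939. The AL mice of the second run thus exceeded those of the first 5.88-fold in this ratio (exact permutation p = 0.0278, the smallest that 2 against 7 mice allow, adjusted p = 0.134 over 40 tests of ratios).
The sum of the 12 neutrophil genes was 41.96 CPM in AL8 and 43.6 CPM in AL9, 2.46 to 5.61 CPM in Ctrl5 to Ctrl7 and 4.52 to 23.8 CPM in the first run. S100a9, which encodes a calcium-binding protein abundant in neutrophils, was at 16.2 and 9.04 CPM in AL8 and AL9 and at 10.8 CPM in Ctrl4 of the first run. S100a9, Retnlg and Mmp8 passed the test of the difference between runs (FDR 0.0444, 0.042 and 0.0323). Whether these genes and Slc4a1 have a common source was not tested.

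**Figure D4:**
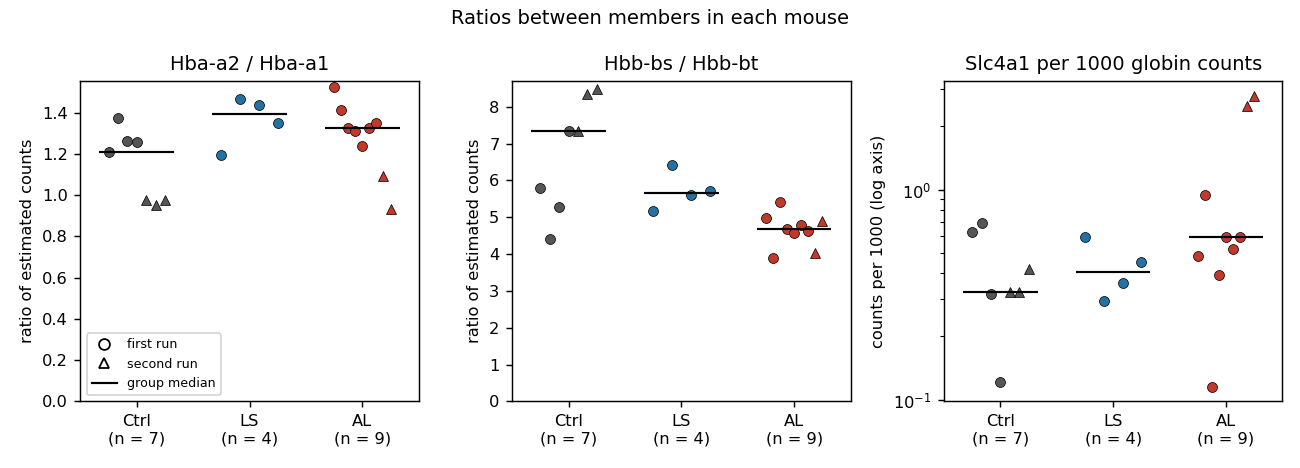
Ratios of estimated counts within each mouse, Hba-a2 over Hba-a1 and Hbb-bs over Hbb-bt (linear axes from 0) and Slc4a1 per 1000 globin counts (log axis), with circles for the first run, triangles for the second and bars at group medians. Hba-a2 over Hba-a1 separates the runs, Hbb-bs over Hbb-bt has its lowest median in AL mice, and AL8 and AL9 stand above the rest for Slc4a1.

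The ratios within the globin pairs were tested after their values were seen. Hba-a2 over Hba-a1 lay between 1.195 and 1.52 in the 15 mice of the first run and was 1.09, 0.933, 0.977, 0.952 and 0.974 in AL8, AL9, Ctrl5, Ctrl6 and Ctrl7, without overlap. Among AL and Ctrl mice the second run had 0.744 times the ratio of the first (exact two-sided permutation p = 0.000229, the smallest that 5 against 11 mice allow, adjusted p = 0.00916 over 40 tests). The fold was 0.746 within AL mice (p = 0.0278) and 0.760 within Ctrl mice (p = 0.0286), each the smallest exact p its size allows. Between AL and Ctrl mice of the first run the ratio differed by less than its spread (1.06-fold, exact permutation p = 0.142).

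Hbb-bs over Hbb-bt lay between 3.89 and 5.42 in AL mice (median 4.69), was 5.18, 6.43, 5.61 and 5.70 in LS mice and lay between 4.42 and 8.47 in Ctrl mice (median 7.34), and the groups overlapped. AL mice had 0.708 times the ratio of Ctrl mice (exact two-sided permutation p = 0.0021, adjusted p = 0.042). Within the first run the fold was 0.836 (exact permutation p = 0.0818), so the difference did not hold in that run by itself, and the log2 difference was -0.13 (exact permutation p = 0.267) without Ctrl4 and -0.37 (p = 0.0167) without Ctrl2. In the second run AL8 and AL9 (4.03 and 4.91) lay under Ctrl5 to Ctrl7 (7.34, 8.35 and 8.47), where the smallest exact p that 2 against 3 mice allow is 0.1.
AL mice had 0.821 times the ratio of LS mice (exact permutation p = 0.00909, adjusted p = 0.0909), and LS mice 1.02 times that of the Ctrl mice of the same run (exact permutation p = 0.943). Ctrl2, which had the highest Hbb-bs level, had the lowest ratio of the Ctrl mice, 4.42. Hbb-bs and Hbb-bt are the beta genes of the single haplotype of the C57BL/6 reference, and Hbb-b1 and Hbb-b2, the genes of the diffuse haplotype found in other strains, are not rows of the table. The beta-globin haplotype of each mouse, in animals derived from 129 and C57BL/6, is not given in the sources used here. Since the copies share most of their sequence, the ratio of transcripts and the division of reads between the copies cannot be told apart here.

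The ratio of alpha to beta counts lay between 0.4999 and 0.864 in AL, between 0.544 and 0.649 in LS and between 0.542 and 0.805 in Ctrl mice, and was not distinguishable between AL and Ctrl mice (1.03-fold, exact permutation p = 0.679). The second run exceeded the first 1.17-fold among AL and Ctrl mice (exact permutation p = 0.0334, adjusted p = 0.134). Alas2 per 1000 globin counts lay between 13.0 and 19.6 in the first run and between 14.8 and 26.6 in the second, 1.30-fold higher among AL and Ctrl mice (exact permutation p = 0.00458, adjusted p = 0.0611).

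Other genes of red cell and haem biology were taken from lists. Of 12 haem synthesis genes tested, 0 were called between AL and Ctrl mice, with a median log2FC of -0.11. Alas1, the form of the enzyme used outside red cells, had means of 115.6, 145.4 and 116.7 CPM in AL, LS and Ctrl mice. Between runs 2 of the 12 were called lower in the second and 0 higher, where 10.3% of all tested genes were lower. Among them was Tmem14c, a mitochondrial membrane protein needed for haem synthesis (log2FC -0.83, FDR 2.32e-05).

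Of 16 iron handling and haem breakdown genes, 4 were called lower in AL than in Ctrl mice and 0 higher, where 3.71% of all tested genes were called lower and 4.1% higher. Slc40a1, which encodes ferroportin, the exporter of iron from cells, had 8.78 to 26.6 CPM in the AL (median 17.8), 25.6 to 35.6 CPM in the LS and 22.3 to 38.3 CPM in the Ctrl mice (median 31.6), and AL2 alone of the AL mice reached into the range of the others. Its log2FC was -0.97 ± 0.17 against Ctrl (FDR 0.000559) and -0.83 ± 0.19 against LS mice (FDR 0.00441). Ftl1, the ferritin light chain, of which near-identical copies exist, fell by 0.78 and 0.88 on the log2 scale (FDR 0.02 and 0.0269).
Hamp, the iron hormone hepcidin, made mainly by the liver, and Tfr2, also a liver gene, fell by 4.38 and 2.32 against Ctrl mice (FDR 0.00583 and 0.0156). The sum of 12 liver genes was 1.40 to 37.5 CPM in AL, 7.51 to 192.2 CPM in LS and 1.67 to 310.7 CPM in Ctrl mice, and 12 of 12 liver genes were called lower in AL than in Ctrl mice. Hamp had 0 counts in 7 of 9 AL mice and in Ctrl5 to Ctrl7. With that list as a covariate the values of Hamp and Tfr2 became -0.26 and 0.37.

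Of the red cell membrane and skeleton genes, Sptb, a beta-spectrin also used by muscle, was called lower in AL than in Ctrl mice (log2FC -0.58 ± 0.14, FDR 0.00561). Sptb lost its call in 14 of 35 alternatives. Of 5 erythroid transcription factor genes tested 0 were called between AL and Ctrl mice, and Nfe2, a factor of the red cell and megakaryocyte lines, was called higher in AL than in LS mice (log2FC 1.45 ± 0.47, FDR 0.0325), a call lost in 10 of 33 alternatives. Of 15 genes tested from the list of other red cell and erythroblast genes, 0 were called between AL and Ctrl mice. Rsad2 of this list was called higher against LS mice (0.97 ± 0.27, FDR 0.0162), a call lost in 4 of 34 alternatives. Rsad2 was not among the 10 genes other than members most like Hbb-bs. Between runs 3 of these 15 genes were called lower in the second and 0 higher, where 10.3% of all tested genes were lower. They were Bnip3l, Prdx2 and Ube2l6 (log2FC -0.76, -0.64 and -1.13, FDR 5.16e-07, 7.15e-06 and 0.0141). In AL3 and Ctrl2, the extremes of the globins, Prdx2 stood at 292.8 and 263.3 CPM and Bnip3l at 74.0 and 100.1 CPM. Bnip3l, which clears mitochondria from maturing red cells, spanned 42.2 to 54.3 CPM in the second run and 74.0 to 100.1 CPM in the first, without overlap.

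**Figure D5:**
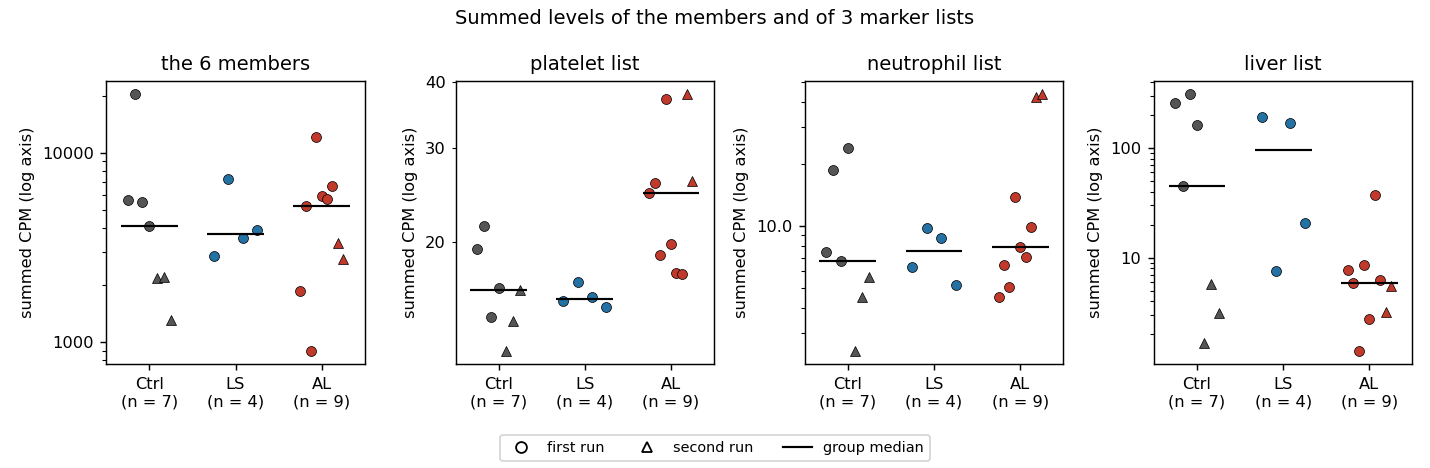
Summed levels (CPM, log axes) of the 6 members, 13 platelet and megakaryocyte genes, 12 neutrophil genes and 12 liver genes in every mouse, with circles for the first run, triangles for the second and bars at group medians. The platelet list spans 17.5 to 37.9 CPM in AL mice, above 15.1 to 16.9 CPM in LS mice. Its range in Ctrl mice, 12.5 to 21.5 CPM, overlaps that of AL mice. For the members all groups overlap.

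Of 10 platelet genes tested, 3 were called higher in AL than in Ctrl mice (4.1% of all tested genes) and 10 of 10 had a log2FC above 0 (median 0.88, all genes 0.01). Those called were Ppbp (1.58 ± 0.44, FDR 0.0141), a chemokine stored in platelet granules, Tubb1 (1.12 ± 0.35, FDR 0.0263), the platelet beta-tubulin, and Clec1b (1.06 ± 0.35, FDR 0.0308), a platelet receptor, whereas Pf4, another platelet chemokine, was at 0.04 ± 0.20. Against LS mice 6 of 10 were called higher (5.86% of all tested genes), with Gp9, Tubb1, Clec1b, Itga2b and Ppbp at 2.58, 1.85, 1.56, 1.55 and 1.72 (FDR 0.00704 to 0.0322). Their levels were low, with Ppbp at 2.09 to 11.02 CPM in the AL (median 3.52), 0.876 to 1.94 CPM in the LS and 0.492 to 3.13 CPM in the Ctrl mice (median 1.29). The summed list was 17.5 to 37.9 CPM in AL mice, above 15.1 to 16.9 CPM in LS mice without overlap, and 12.5 to 21.5 CPM in Ctrl mice. In AL against Ctrl mice the calls of Ppbp, Tubb1 and Clec1b were lost in 3, 8 and 10 of 34 alternatives. Against LS mice Gp9, Tubb1 and Clec1b each lost the call in 1 of 33, Itga2b in 3 of 34 and Ppbp in 6 of 33. The remaining platelet call against LS mice was lost in 23 of 32 alternatives. Of 10 neutrophil genes 0 were called in either comparison, and of 8 B cell genes Cd22 was called higher against LS mice (1.86 ± 0.62, FDR 0.0353). Of 10 T cell genes Cd6 was called lower against Ctrl mice (log2FC -1.79), of 10 endothelial genes Egfl7 higher against LS mice (0.80), and of 3 other globins tested Cygb, cytoglobin, higher against LS mice (0.58, a call lost in 19 of 34 alternatives). Of 10 cardiomyocyte genes 0 were called in AL mice against Ctrl or LS, and in LS against Ctrl mice 0 genes were called in each of these lists.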

How the data were processed

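RNA of the heart apex was measured in 20 mice, grouped by the sample labels into AL, LS and Ctrl, with the run from the batch label. Per the labels and methods, the authors aligned stranded paired reads to GRCm38 with STAR, estimated counts with Salmon in the nf-core workflow and deposited these estimated counts for 25308 genes without normalization. Of the values, 14.2% were not whole and were rounded. Genes were kept by filterByExpr (minimum count 10) and scaled by TMM, and all 20 mice were fitted together with group and run by edgeR 4.0.16 (glmQLFit and glmQLFTest, R 4.3.3). FDR is Benjamini-Hochberg adjusted over the tested genes, p-values are two-sided, and standard errors derive from the F statistic. P-values measure the spread between these mice.

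Members and 13 other gene lists were chosen with earlier results of these data known. Named genes are the members, the first 3 and up to 5 called genes of each list, the table's other globins and the 10 genes most correlated with Hbb-bs. Relations used log2 CPM (prior count 2) or log2 of summed CPM plus 1. Alternatives were other filters and scalings, DESeq2 1.42.0, ComBat-seq (sva 3.50.0), a likelihood ratio test, other covariates, single runs, a replicate block, summed copies and each mouse left out. Male-type mice alone and the ratio tests were added after the data were seen. Fits were tested on simulated data. Promoters come from RefSeq and gene models from GENCODE M21. Python 3.11.15 and limma 3.58.1 were also used. The same deposited counts showed no 2 identical libraries (correlations 0.893 to 0.98). Some genes of the lists that the rule would name are not reported here.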

Additional observations from a re-analysis of the deposited data

Results flagged for a closer look

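Single mice stood far from the others of their group in 9 of 33 sets of values examined by Dixon's criterion, and 6 of the 9 belong to Ctrl2. Its rate of about 1 set in 20 by chance holds for independent sets of normal values. Here the values were not on a log scale and the members moved together. The flags are therefore no separate observations, and their number cannot be set against that rate. Ctrl2 was the outlying Ctrl mouse for Hba-a1 (3579 CPM), Hba-a2 (4912 CPM), Hbb-bs (9421 CPM), Hbb-bt (2134 CPM), Alas2 (356.0 CPM) and Slc4a1 (13.9 CPM). AL4 was the outlying AL mouse for Hba-a1 (2222 CPM) and Hba-a2 (2912 CPM). In the ratio of alpha to beta globin counts, AL1 (0.4999) lay under the other AL mice.

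Among the listed genes, 4 differed between runs in AL against Ctrl mice by edgeR's quasi-likelihood test of the interaction, Benjamini-Hochberg adjusted. The difference on the log2 scale was 10.41 for Mmp8 (FDR 0.0323), 11.14 for Retnlg (FDR 0.042), 5.03 for S100a9 (FDR 0.0444) and -0.86 for Emcn (FDR 0.014). The values of Mmp8 and Retnlg rest on 0 counts in 3 mice, Ctrl5 to Ctrl7, and are no bounds of a fold.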

How the results depend on the processing

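The number of members called stayed at 0 in AL against LS, LS against Ctrl and the difference between runs under each alternative fitted. In AL against Ctrl it was 1, Slc4a1, in the second run alone (log2FC 3.64, 16 of 12496 genes called) and in male-type mice only (3.1199, 684 of 14804). Against merged controls it was 1, Slc4a1, with ComBat-seq (640 of 14531 genes called) and in male-type mice only (543 of 14804). Between runs it was 0 with Xist as covariate (2865 of 14477), and 2 to 5 with each mouse left out, against 3. In these counts the cause was not tested. Leaving out each mouse gave 0 members called in the other comparisons and 5 to 7 relations with Hbb-bs, against 5.

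Replicate numbers did not pair the mice. Deviations of same-numbered mice correlated at -0.228 to 0.293 over 15 pairs, 4 of them over 0.1, and 3 of 18 mice correlated best with their own number. With the replicate block the number of members called was 0, 0, 0 and 0 between groups and 3 between runs.

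The sign of uncalled values changed often. For AL against Ctrl the log2FC became, in the second run alone, with Xist as covariate, with ComBat-seq and in male-type mice only, 1.02, 0.19, 0.13 and 0.80 for Alas2, 0.80, 0.13, 0.027 and 0.69 for Hba-a2, and 1.42, 0.38, 0.34 and 1.10 for Hbb-bt. Hba-a1 became 0.73 in the second run, 0.068 with Xist and 0.62 in male-type mice. Hbb-bs became 0.56 in the second run and 0.33 in male-type mice. Hbb-bt, reported at -0.0039, became 0.0045 with the stricter filter, 0.0067 with RLE factors, 0.0033 with the likelihood ratio test, 0.0043 with only the 2 groups and 0.014 with DESeq2. Slc4a1 became -0.73 in the first run alone and -0.97 with the replicate block. For AL against LS, Hba-a1, Hba-a2 and Hbb-bs became -0.10, -0.067 and -0.29 with the replicate block, and Hbb-bs -0.019 with no run term. For LS against Ctrl in male-type mice, Hbb-bt and Slc4a1 became 0.32 and 2.30. Between runs Slc4a1 became 0.99 with Xist, 0.037 with the liver list and 1.16 in male-type mice. Tfr2 in AL against Ctrl became 0.37 with the liver list, and the r of Hbb-bs with cardiomyocytes 0.29 in the first run alone.

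With each mouse left out, the log2FC in AL against Ctrl ranged from -0.34 to 0.55 for Alas2, -0.46 to 0.35 for Hba-a1, -0.42 to 0.44 for Hba-a2, -0.54 to 0.17 for Hbb-bs and -0.21 to 0.72 for Hbb-bt. In LS against Ctrl it ranged from -1.07 to 0.092 for Hbb-bt and -1.16 to 0.40 for Slc4a1, and between runs from -0.65 to 0.30 for Slc4a1. The r of Hbb-bs with B cells ranged from -0.025 to 0.10. Slc4a1 was not tested under the filter of 10 counts in every mouse. Slc4a1 rests on 7 counts in each of Ctrl5 to Ctrl7.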
